A study of Homo sapiens with 8 samples.

Results

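With an importin8 siRNA, the response of HepG2 cells to a miR-552-3p mimic was blunted in 89.8% of the genes whose response differed from that with a control siRNA. Most genes of the cholesterol synthesis (23 of 25), integrated stress (19 of 23) and heat shock (13 of 17) lists were blunted. So were 16 of 23 actin and 20 of 29 coagulation genes, beside 28.1% of all genes tested. In the cell cycle lists, 10 of 30 G1/S and 10 of 28 G2/M genes were kept, beside 5.99% of all genes tested, and chaperones of the endoplasmic reticulum were divided between blunted (8 of 21) and kept (7 of 21). Few genes were reversed or strengthened. HepG2 is an established human liver cancer line. All 8 of the series' 8 libraries were used, 2 in each of 4 groups, and a library was assigned by its title. The si-importin8-miR-552-3p cells received the mimic at 1 nM and an siRNA to importin8 at 30 nM. The si-importin8-NC cells received a negative control in place of the mimic, with the same siRNA. The miR-552-3p cells received the mimic with a negative control siRNA, and the NC cells received both negative controls, at the same concentrations. RNA was taken after 72 h in every group, so all groups share transfection with both kinds of small RNA. The mimic effect with importin8 siRNA is the log2 fold change of si-importin8-miR-552-3p over si-importin8-NC. The mimic effect with control siRNA is that of miR-552-3p over NC. The first minus the second is called the difference: a positive value means a weaker fall or a stronger rise when importin8 was lowered.

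Importin8, encoded by IPO8, is a transport receptor of the karyopherin family that carries cargo through the nuclear pore. It binds Argonaute proteins, the effectors that hold a mature microRNA, and has been linked to the entry of microRNAs into the nucleus and to the loading of Argonaute onto target transcripts. The bile acid receptor FXR and the oxysterol receptors LXR are nuclear receptors that set bile acid, sterol, triglyceride and glucose metabolism in hepatocytes, which is the setting named in the series' title.

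The sequence of the mature microRNA is shown because its seed, bases 2 to 8, given in capitals, sets which 3′ UTRs it can pair with. It comes from RefSeq (GRCh38.p14), lies on the minus strand at chr1:34669614-34669634 and has 21 bases.
hsa-miR-552-3p: aACAGGUGacugguuagacaa
No other human mature microRNA in that table has the same seed. The DNA letters of a matching site in a transcript are CACCTGT.

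Libraries held between 21608563 and 22102373 expected counts in all, and 17715 of 26716 genes had enough counts to be tested. IPO8, the gene the siRNA targets (chr12:30628988-30695986, minus strand, GRCh38), was at 7.64 and 8.3 CPM in si-importin8-miR-552-3p against 11.3 and 11.5 CPM in si-importin8-NC, and 25.4 and 24.6 CPM in miR-552-3p against 34.6 and 33.3 CPM in NC, so it was lowest in both siRNA groups and its transcript was not abolished. Along the first principal component (64.4% of the variance), si-importin8-miR-552-3p lay at -29.8 and -28.3, si-importin8-NC at 12.2 and 16.8, miR-552-3p at -52.5 and -50.3, and NC apart at 63.7 and 68.3. The interaction cannot be formed without the NC libraries. Without NC replicate 1 it was called for 5707 genes and without NC replicate 2 for 4976, beside 5551 with all libraries. The summed level of 10 hepatocyte-like markers was 73930 to 77930 CPM (expected counts scaled by library size) in si-importin8-miR-552-3p, 66930 to 69730 CPM in si-importin8-NC, 49200 to 49990 CPM in miR-552-3p and 62800 to 69560 CPM in NC. Summed levels of 12 of 13 fibroblast markers were 124 to 132 CPM, 138 to 141 CPM, 216 to 225 CPM and 308 to 315 CPM in the same order of groups, with DCN, LUM, THY1 and FAP at 3 counts or fewer in every library. For 11 of 12 endothelial and blood markers the sums were 1508 to 1515, 1935 to 1994, 1004 to 1011 and 2088 to 2471 CPM, and for 10 cholangiocyte and progenitor markers 1183 to 1219, 732 to 740.3, 2502 to 2540 and 949 to 1016 CPM. None of these markers was at 0 counts in every library. All libraries are of the HepG2 line, so these sums give levels of marker genes and do not count cell types. The part of these shifts in the results below was not tested. In bulk RNA, fewer cells that express a gene and less of its RNA per cell cannot be told apart.

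The difference was called (edgeR quasi-likelihood test, p adjusted by Benjamini-Hochberg over all genes tested and under 0.05) for 5551 of 17715 genes, 31.3% of them. It was positive in 2513 genes (14.2%) and negative in 3038 genes (17.1%), and 7187 genes had an unadjusted p under 0.05. The mimic effect with importin8 siRNA was called for 5607 genes (31.7%), of which 2649 rose (15%) and 2958 fell (16.7%). The mimic effect with control siRNA was called for 10341 genes (58.4%), of which 5120 rose (28.9%) and 5221 fell (29.5%). Of the 4855 genes called in both effects, 4668 moved the same way (96.1%). The median size of the mimic effect, without sign, was 0.32 with importin8 siRNA and 0.59 with control siRNA over all genes tested. The medians with sign were -0.00 and -0.01, and that of the difference was -0.02.

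Each gene was placed in a class from its calls. Blunted genes, with a called control siRNA effect and a called difference against it, numbered 4986 (28.1%), of which 2265 were falls (12.8%) and 2721 rises (15.4%). Among them 2379 still passed the test with importin8 siRNA and 2607 did not. Reversed genes, called in both arms in opposite directions with a called difference, numbered 187 (1.06%). Strengthened genes, where the called difference went the same way as the called control siRNA effect, numbered 45 (0.254%). Gained genes, called with importin8 siRNA only and with a called difference, numbered 265 (1.5%). Kept genes, called in both arms the same way with the 95% interval of the difference inside -0.5 to 0.5, numbered 1061 (5.99%). A further 1183 genes (6.68%) moved the same way in both arms with a wider interval, and are called undecided. Kept falls had a median control siRNA effect of -0.47 and kept rises one of 0.45. The limit of 0.5 is wide beside these, so a kept gene can have lost part of its effect. A difference of log2 fold changes depends on where each arm starts, so the classes were also checked on CPM: the change in CPM was smaller with importin8 siRNA for 4916 of 4986 blunted genes and larger for 40 of 45 strengthened genes. Single libraries moved the smaller counts by more than 1.5 times. Without si-importin8-miR-552-3p replicate 1, the mimic effect with importin8 siRNA was called for 3551 genes, and 85 genes were reversed, 25 strengthened, 141 gained and 594 kept. Without si-importin8-NC replicate 2 these numbers were 3545, 99, 24, 162 and 575, and the closing section gives the counts that the other libraries moved as far. The kept counts of single lists, most of them 4 or fewer, also moved with single libraries. Those of the G1/S, G2/M and chaperone lists stayed within 1.5 times when a library was left out. With DESeq2 kept genes numbered 6 of 30 in G1/S, 5 of 28 in G2/M and 7 of 21 among the chaperones, and 567 over all genes.

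**Figure D1:**
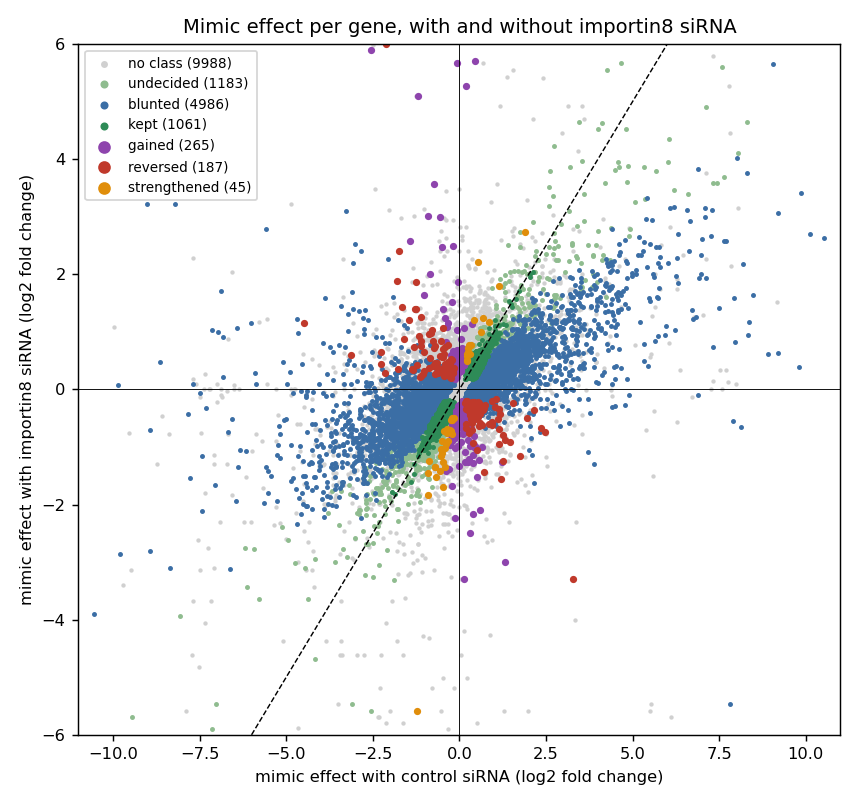
Mimic effect of each gene tested with importin8 siRNA (vertical axis) against that with control siRNA (horizontal axis), both as log2 fold change, 1 point per gene and coloured by class. The dashed line marks equal effects, and 56 genes lie outside the limits of 11 and 6; the 4986 blunted genes fall between that line and the horizontal zero line or just past the latter.

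Over the 10341 genes called with control siRNA, the importin8 siRNA arm had a median of 37.0% of that log2 effect (quartiles 15.1 and 59.9%). This retained share had a median of 39.5% for falls and 35.0% for rises, and was above 80% for 1366 genes. It was 36.0% for the 2440 falls and 36.5% for the 1992 rises of at least 2-fold. Genes picked for a large effect in an arm tend to look smaller in the other, so the choice was also made the other way. The 584 genes that fell at least 2-fold with importin8 siRNA had a median effect of -1.35 there and -1.84 with control siRNA. The 547 genes that rose at least 2-fold with importin8 siRNA had medians of 1.64 there and 2.72 with control siRNA. Chosen either way, the control siRNA arm had the larger median effect.

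The 3 comparisons against NC share its libraries, so their values are given side by side only. Blunted falls had a median of -0.93 in si-importin8-miR-552-3p, -0.61 in si-importin8-NC and -1.22 in miR-552-3p, each against NC. Blunted rises had medians of 0.81, 0.53 and 0.98 in the same groups. In both, the median of si-importin8-NC lay between 0 and that of miR-552-3p. Kept falls differed, with -0.21, 0.21 and -0.47, as did kept rises, with 0.41, 0.01 and 0.45. Reversed genes that fell with importin8 siRNA had 0.48, 0.87 and 0.47, and strengthened falls had -0.32, 0.66 and -0.46.

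Among the nuclear receptor genes, the fall of FXR itself was largely lost and the LXR genes did not pass in the difference. NR1H4, which encodes FXR (chr12:100473708-100564413, plus strand, GRCh38), was at 70.2 and 66.1 CPM in si-importin8-miR-552-3p against 84.7 and 77.1 CPM in si-importin8-NC, and 27.5 and 27.4 CPM in miR-552-3p against 73.2 and 74.7 CPM in NC. Its miR-552-3p libraries were far below the other 6, and no groups overlapped. NR1H4 fell in both arms, at -0.25 with importin8 siRNA and -1.43 with control siRNA (difference 1.18, SE 0.10, adjusted p = 1.6e-05). NR0B2, the gene of SHP, a repressor that FXR induces, was at 168 and 177 CPM in si-importin8-miR-552-3p against 316 and 317 CPM in si-importin8-NC, and 49.1 and 49.3 CPM in miR-552-3p against 138 and 123 CPM in NC, with no overlap between any groups. It fell in both arms too, by less with importin8 siRNA (-0.88 with importin8 siRNA and -1.41 with control siRNA; difference 0.53, SE 0.10, adjusted p = 0.0026). NR1H3, which encodes LXR alpha, had effects of -0.23 with importin8 siRNA and -0.06 with control siRNA, of which only the first passed (in 10 of 18 other settings as well). NR1H2, which encodes LXR beta, had 0.08 with importin8 siRNA and 0.05 with control siRNA, and SREBF1, a lipogenic factor induced by LXR, had -0.11 with importin8 siRNA and -0.14 with control siRNA; none of these passed. Of the other hepatocyte transcription factors, NR5A2, an activator of bile acid synthesis genes, fell, at -0.75 with importin8 siRNA and -3.14 with control siRNA (difference 2.39, SE 0.14, adjusted p = 2.7e-06). CEBPB, a factor of the acute phase response, rose by 0.35 with importin8 siRNA and 1.98 with control siRNA (difference -1.63, SE 0.09, adjusted p = 2.3e-06). HNF4A, a master regulator of hepatocyte identity, kept its fall: -0.37 with importin8 siRNA and -0.41 with control siRNA, with a difference of 0.04, 95% interval -0.16 to 0.25. In the list of 21 such factors 11 were blunted (52.4%, beside 28.1% of all genes tested), 2 kept and 2 undecided.

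FXR and LXR target lists did not move as units. Of 18 genes that FXR raises, 3 rose and 5 fell with importin8 siRNA and 6 rose and 8 fell with control siRNA; 9 were blunted, 1 was kept and 1 gained. The 3 fibrinogen chains, which FXR induces in human hepatocytes, were among the blunted rises. FGA, the alpha chain, was at 1147 and 1149 CPM in si-importin8-miR-552-3p against 965 and 958 CPM in si-importin8-NC, and 463 and 485 CPM in miR-552-3p against 86.9 and 64.7 CPM in NC. Its level was lowest in NC and highest in both importin8 siRNA groups, and the groups did not overlap. The mimic effect was 0.26 with importin8 siRNA and 2.64 with control siRNA (difference -2.39, SE 0.16, adjusted p = 7.0e-06), and only the second passed. FGB, the beta chain, rose by 1.08 with importin8 siRNA and 3.25 with control siRNA, and FGG, the gamma chain, had 0.02 with importin8 siRNA and 1.47 with control siRNA, passing with control siRNA only. Of 5 genes tested that FXR lowers, 4 fell with importin8 siRNA, and 1 rose and 4 fell with control siRNA; 3 were blunted, 1 reversed and 1 undecided. Among LXR targets, 4 of 15 were blunted, 1 was reversed and 1 gained, and the blunted share of 26.7% is close to the 28.1% of all genes tested. SMPDL3A, a phosphodiesterase that LXR induces in macrophages, rose by 0.63 with importin8 siRNA and 2.27 with control siRNA (difference -1.64, SE 0.12, adjusted p = 6.7e-06). MLXIPL, the glucose-sensing factor ChREBP, fell, at -1.38 with importin8 siRNA and -2.37 with control siRNA (difference 0.99, SE 0.12, adjusted p = 0.00018). The median difference of the FXR-raised and LXR lists changed sign with some of the 18 other settings tried, in 2 for the FXR-raised and in 1 for the LXR list, so no direction is given for these lists.

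Bile acid genes took several courses, and CYP7A1 moved in opposite directions in the arms. CYP7A1, whose product catalyses the limiting step in making bile acids, was at 10.6 and 10.2 CPM in si-importin8-miR-552-3p against 22.3 and 21.2 CPM in si-importin8-NC, and 2.1 and 2.35 CPM in miR-552-3p against 1.3 and 1.8 CPM in NC. It was highest in si-importin8-NC and under 3 CPM in all 4 control siRNA libraries, and no groups overlapped. CYP7A1 fell with importin8 siRNA and rose with control siRNA (-1.06 with importin8 siRNA and 0.52 with control siRNA; difference -1.58, SE 0.23, adjusted p = 0.00059). Its small control siRNA rise, with an adjusted p of 0.037, passed in 7 of 18 other settings; in the other 11 CYP7A1 was gained instead, and the difference stayed called in all of them, at -1.83 to -1.36. CYP8B1, which makes cholic acid, fell in both arms (-2.94 with importin8 siRNA and -4.16 with control siRNA), and its difference of 1.21 did not pass (adjusted p = 0.057). Of 17 genes that make or carry bile acids, 5 were blunted, 2 reversed, 1 gained, 1 kept and 5 undecided, with a blunted share of 29.4% that is close to the 28.1% of all genes tested. The canalicular and basolateral exporters of the ABCC family were blunted rises: ABCC2 rose by 0.51 with importin8 siRNA and 1.65 with control siRNA and ABCC3 by 0.57 with importin8 siRNA and 1.61 with control siRNA, while ABCC4 had 0.26 with importin8 siRNA and 2.16 with control siRNA and passed in the second only. HSD17B4, a peroxisomal enzyme of side-chain shortening, was kept, with -0.22 with importin8 siRNA and -0.48 with control siRNA, though 4 of 18 other settings called its difference, at 0.21 to 0.31 over all of them. ABCA1, the cholesterol exporter, was also reversed. It was at 133 and 116 CPM in si-importin8-miR-552-3p against 152 and 160.5 CPM in si-importin8-NC, and 106 and 115 CPM in miR-552-3p against 67.2 and 76.1 CPM in NC, lowest in NC with no overlap between the groups of either arm, and its effects were -0.33 with importin8 siRNA and 0.63 with control siRNA (difference -0.96, SE 0.12, adjusted p = 0.00029). Without replicate 2 of either importin8 siRNA group its effect there was not called, and ABCA1 counted as blunted.

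Cholesterol synthesis was the list with the highest share of blunted genes in the plot of classes, 23 of 25 against 28.1% of all genes tested. Its median effect was -0.33 with importin8 siRNA and -1.53 with control siRNA, against -0.00 and -0.01 over all genes. With importin8 siRNA 1 member rose and 14 fell, and with control siRNA 1 rose and 22 fell. LSS, which closes the sterol ring (chr21:46188141-46228824, minus strand, GRCh38), was at 42.7 and 43.1 CPM in si-importin8-miR-552-3p against 67.2 and 81.2 CPM in si-importin8-NC, and 36.6 and 42.7 CPM in miR-552-3p against 204 and 239 CPM in NC. The NC libraries stood far above the rest, si-importin8-NC came next, and both mimic groups lay together at the bottom. LSS fell, at -0.79 with importin8 siRNA and -2.48 with control siRNA (difference 1.69, SE 0.16, adjusted p = 9.9e-05). MVK, mevalonate kinase, fell, at -0.59 with importin8 siRNA and -2.27 with control siRNA (difference 1.68, SE 0.13, adjusted p = 8.9e-06). EBP, a sterol isomerase, fell, at -0.40 with importin8 siRNA and -2.01 with control siRNA (difference 1.61, SE 0.11, adjusted p = 5.6e-06). ACAT2, which condenses acetyl-CoA at the start of the route, was at 105 and 107 CPM in si-importin8-miR-552-3p against 153 and 145 CPM in si-importin8-NC, and 40.6 and 43.6 CPM in miR-552-3p against 189 and 168 CPM in NC, with si-importin8-miR-552-3p below si-importin8-NC and miR-552-3p lowest. It fell, at -0.49 with importin8 siRNA and -2.08 with control siRNA (difference 1.59, SE 0.11, adjusted p = 4.8e-06). The list retained a median of 23.6% of its control siRNA effect.

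**Figure D2:**
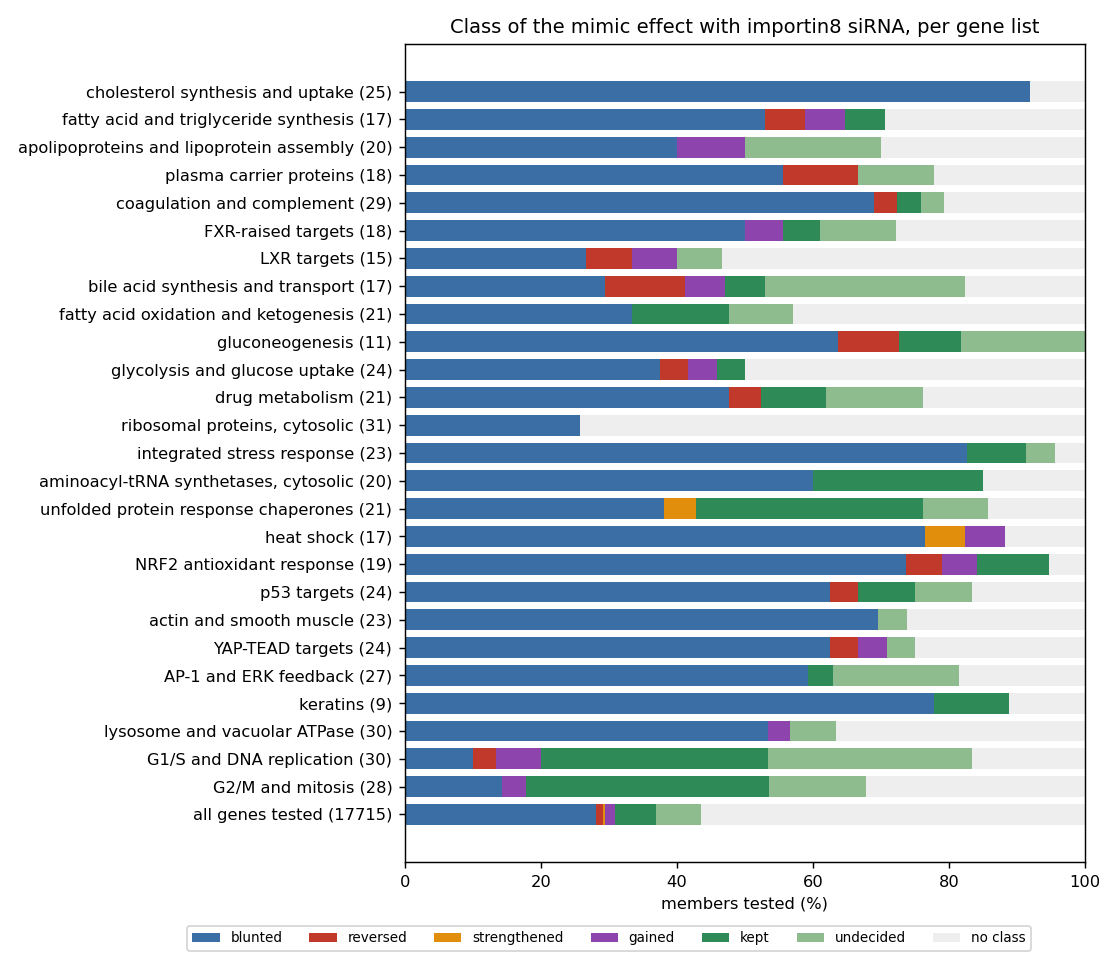
Share of the members tested of each gene list (number in brackets) that fell in each class, as percent on the horizontal axis, with all 17715 genes in the bottom bar. Cholesterol synthesis is blunted in 23 of 25 genes, while 10 of 30 G1/S genes and 10 of 28 G2/M genes are kept, against 5.99% of all genes.

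In fatty acid and triglyceride synthesis 9 of 17 genes were blunted, all of them falls, with list medians of -0.22 with importin8 siRNA and -1.02 with control siRNA. FASN, the fatty acid synthase, was at 537 and 531 CPM in si-importin8-miR-552-3p against 505 and 561 CPM in si-importin8-NC, and 306 and 339 CPM in miR-552-3p against 682 and 840.2 CPM in NC. Both importin8 siRNA groups overlapped each other, and miR-552-3p lay lowest. FASN had effects of 0.00 with importin8 siRNA and -1.24 with control siRNA, and only the second passed (difference 1.24, SE 0.15, adjusted p = 0.00019). SCD, the desaturase that makes oleate, had -0.19 with importin8 siRNA and -1.26 with control siRNA, again passing in the second only (difference 1.07, SE 0.11, adjusted p = 6.5e-05). ACACA, acetyl-CoA carboxylase, fell in both arms, at -0.35 with importin8 siRNA and -1.22 with control siRNA (difference 0.88, SE 0.10, adjusted p = 0.00014). PNPLA3, a lipid droplet hydrolase, fell, at -1.41 with importin8 siRNA and -3.04 with control siRNA, and ACSS2, which activates acetate, at -0.46 with importin8 siRNA and -1.71 with control siRNA. DGAT2, which adds the last acyl chain of a triglyceride, kept its fall: it was at 37.8 and 38.9 CPM in si-importin8-miR-552-3p against 77.5 and 70.5 CPM in si-importin8-NC, and 22.5 and 24.6 CPM in miR-552-3p against 50.5 and 49.7 CPM in NC, and the difference was 0.14, 95% interval -0.10 to 0.38. LPIN1 was reversed and AGPAT2 gained. In fatty acid oxidation and ketogenesis 7 of 21 genes were blunted (33.3%, beside 28.1% of all genes tested) and 3 kept. BDH1, which makes 3-hydroxybutyrate, fell, at -0.85 with importin8 siRNA and -2.98 with control siRNA, and PPARA, the nuclear receptor that drives the pathway, at -0.80 with importin8 siRNA and -1.58 with control siRNA. CPT2, which forms acyl-CoA inside the mitochondrion, kept its fall (-0.67 with importin8 siRNA and -0.58 with control siRNA; difference -0.09, 95% interval -0.45 to 0.27). ACADVL, which starts the oxidation of very long chains, kept a rise of 0.42 with importin8 siRNA and 0.32 with control siRNA.

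Lipoprotein genes were blunted in part. Of 20 apolipoproteins and assembly factors, 1 rose and 10 fell with importin8 siRNA and 2 rose and 13 fell with control siRNA. Blunted members were 6 falls and 2 rises (40.0% of the list, beside 28.1% of all genes tested), and 10 members had no called difference. APOA5, an activator of triglyceride clearance, was at 12.8 and 14.2 CPM in si-importin8-miR-552-3p against 56.3 and 56.8 CPM in si-importin8-NC, and 4.85 and 4.75 CPM in miR-552-3p against 92.9 and 90.9 CPM in NC, with 4 separate groups. It fell, at -2.07 with importin8 siRNA and -4.26 with control siRNA (difference 2.19, SE 0.11, adjusted p = 1.2e-06). MTTP, which loads lipid onto nascent lipoproteins, fell, at -1.01 with importin8 siRNA and -2.43 with control siRNA (difference 1.43, SE 0.10, adjusted p = 7.0e-06). APOC3, an inhibitor of triglyceride clearance that FXR lowers, fell, at -1.17 with importin8 siRNA and -2.35 with control siRNA (difference 1.18, SE 0.12, adjusted p = 5.4e-05). APOA1, the main protein of HDL, fell, at -0.64 with importin8 siRNA and -1.48 with control siRNA (difference 0.84, SE 0.12, adjusted p = 0.0005). APOA2, also of HDL, moved the other way and rose by 0.29 with importin8 siRNA and 1.58 with control siRNA (difference -1.29, SE 0.14, adjusted p = 8.0e-05).

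Glucose metabolism was mixed. All 11 gluconeogenesis genes tested were called with control siRNA and 10 of them with importin8 siRNA; 7 were blunted, 1 (FOXO1) reversed and 1 kept. Blunted members numbered 4 without either si-importin8-miR-552-3p library, si-importin8-NC replicate 1 or miR-552-3p replicate 1. The list's median effect was -0.60 with importin8 siRNA and 0.44 with control siRNA, while the median of its differences was 0.28. G6PC, the enzyme of glucose release, was at 1.2 and 1.14 CPM in si-importin8-miR-552-3p against 4.71 and 4.81 CPM in si-importin8-NC, and 0.549 and 0.659 CPM in miR-552-3p against 8.01 and 6.31 CPM in NC, low throughout. G6PC fell, at -2.02 with importin8 siRNA and -3.55 with control siRNA (difference 1.54, SE 0.34, adjusted p = 0.0065); DESeq2 gave its difference an adjusted p of 0.052. CREB3L3, a hepatic factor of fasting, fell, at -1.48 with importin8 siRNA and -3.89 with control siRNA (difference 2.41, SE 0.11, adjusted p = 8.2e-07). PCK1, which makes phosphoenolpyruvate, fell, at -0.60 with importin8 siRNA and -0.88 with control siRNA, with a difference of 0.28, 95% interval -0.21 to 0.77 that did not pass. PC, pyruvate carboxylase, kept its rise at 131 and 132 CPM in si-importin8-miR-552-3p against 93.5 and 95.5 CPM in si-importin8-NC, and 205 and 203 CPM in miR-552-3p against 148 and 152 CPM in NC (difference 0.03, 95% interval -0.14 to 0.21). In glycolysis and glucose uptake 9 of 24 genes were blunted (37.5%, beside 28.1% of all genes tested), 8 of them rises. Fewer glycolysis and glucose uptake genes were blunted without any 1 library outside NC, and more without either NC library. Against a 1.2-fold change 5 of 24 were blunted, beside 3484 of 17715 genes tested. HK2, a hexokinase raised in hepatocellular carcinoma, was at 886 and 829 CPM in si-importin8-miR-552-3p against 539.7 and 488 CPM in si-importin8-NC, and 741 and 768 CPM in miR-552-3p against 142 and 95 CPM in NC and was lowest in NC. HK2 rose by 0.74 with importin8 siRNA and 2.67 with control siRNA (difference -1.93, SE 0.23, adjusted p = 0.00061). SLC2A2, the hepatic glucose transporter GLUT2, had 0.13 with importin8 siRNA and 2.10 with control siRNA and passed in the second only (difference -1.97, SE 0.15, adjusted p = 8.9e-06). SLC2A1 was reversed. PFKL, the liver phosphofructokinase, kept a fall of -0.50 with importin8 siRNA and -0.43 with control siRNA (difference -0.07, 95% interval -0.25 to 0.11).

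The median retained share was 21.5% over the 15 plasma carrier proteins and 24.3% over the 24 genes of coagulation and complement that were called with control siRNA, beside 37.0% over all genes called with control siRNA. SERPINA6, the corticosteroid carrier, was at 82.8 and 79.6 CPM in si-importin8-miR-552-3p against 202 and 204 CPM in si-importin8-NC, and 26.8 and 30.6 CPM in miR-552-3p against 483 and 459 CPM in NC, with no overlap, and fell, at -1.32 with importin8 siRNA and -4.04 with control siRNA (difference 2.71, SE 0.11, adjusted p = 3.6e-07). HPX, the haem carrier, fell, at -0.91 with importin8 siRNA and -3.64 with control siRNA, and ORM1, an acute phase carrier, rose by 0.44 with importin8 siRNA and 1.86 with control siRNA. ALB and AZGP1 were reversed. Among 29 coagulation and complement genes 20 were blunted, 14 of them falls and 6 rises. The blunted count was 16 with DESeq2 and was also lower in most fits that left out a library. C5, the complement component that forms the lytic complex, was at 286 and 255 CPM in si-importin8-miR-552-3p against 238 and 229.5 CPM in si-importin8-NC, and 179.6 and 195 CPM in miR-552-3p against 52.8 and 40.0 CPM in NC; it had effects of 0.21 with importin8 siRNA and 2.01 with control siRNA, and only the second passed (difference -1.80, SE 0.17, adjusted p = 7.7e-05). F13B, a carrier subunit of factor XIII, was reversed, with -0.79 with importin8 siRNA and 1.25 with control siRNA (difference -2.03, SE 0.30, adjusted p = 0.00065). SERPINC1, antithrombin, kept its fall of -0.27 with importin8 siRNA and -0.42 with control siRNA. Among acute phase and NF-kB genes, CXCL8, a neutrophil chemokine, was at 55.5 and 51.5 CPM in si-importin8-miR-552-3p against 14.3 and 12.4 CPM in si-importin8-NC, and 184 and 157 CPM in miR-552-3p against 5.67 and 4.38 CPM in NC, and rose by 2.0 with importin8 siRNA and 5.08 with control siRNA (difference -3.08, SE 0.18, adjusted p = 3.5e-06). SAA4, a constitutive serum amyloid, was reversed, at 0.36 with importin8 siRNA and -1.78 with control siRNA, and ICAM1 kept a fall, at -0.64 with importin8 siRNA and -0.64 with control siRNA (difference 0.00, 95% interval -0.23 to 0.24).

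Drug metabolism retained a median of 11.3% over its 18 members called with control siRNA, beside 37.0% over all such genes. The spread was wide, with quartiles of -6.11 and 59.4% and 3 members above 80%. Of 21 members tested 10 were blunted (47.6%, beside 28.1% of all genes tested). The list's median difference changed sign in 4 of 18 other settings. CYP3A5, a drug-oxidising cytochrome, was at 4.37 and 3.98 CPM in si-importin8-miR-552-3p against 5.02 and 5.03 CPM in si-importin8-NC, and 4.16 and 4.38 CPM in miR-552-3p against 48.2 and 52.7 CPM in NC: NC stood alone and the other 6 libraries were at or under 5.03 CPM. It had effects of -0.27 with importin8 siRNA and -3.56 with control siRNA, and only the second passed (difference 3.29, SE 0.16, adjusted p = 8.7e-07). CYP1A1, an aryl hydrocarbon receptor target, fell, at -0.62 with importin8 siRNA and -3.30 with control siRNA (difference 2.68, SE 0.18, adjusted p = 4.4e-06). UGT2B10, a glucuronosyltransferase of the liver, was reversed, with -0.33 with importin8 siRNA and 1.15 with control siRNA (difference -1.48, SE 0.14, adjusted p = 6.1e-05). GSTA1, a glutathione transferase, was kept: it was at 11 and 10.2 CPM in si-importin8-miR-552-3p against 37 and 38.1 CPM in si-importin8-NC, and 1.88 and 1.41 CPM in miR-552-3p against 5.44 and 6.48 CPM in NC, below its own control in each arm, and its fall was -1.82 with importin8 siRNA and -1.85 with control siRNA (difference 0.03, 95% interval -0.39 to 0.45). That interval lay inside the limits of 0.5 in 6 of 18 other settings. Of 24 genes of amino acid catabolism and the urea cycle 12 were blunted (50.0%, beside 28.1% of all genes tested). AGXT, which detoxifies glyoxylate, fell, at -1.74 with importin8 siRNA and -4.27 with control siRNA (difference 2.52, SE 0.12, adjusted p = 9.2e-07). HAL, histidase, rose by 0.30 with importin8 siRNA and 4.18 with control siRNA (difference -3.88, SE 0.21, adjusted p = 1.3e-06).

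The stress programs rose in both arms and most of their members rose less with importin8 siRNA. In the integrated stress response, which halts general translation and induces ATF4 targets, 18 of 23 genes rose with importin8 siRNA and 22 with control siRNA, and none fell in either. The median effect was 0.70 with importin8 siRNA and 1.55 with control siRNA, and 19 members were blunted. DDIT3, which encodes CHOP, was at 132 and 138 CPM in si-importin8-miR-552-3p against 79.4 and 71.8 CPM in si-importin8-NC, and 213 and 187 CPM in miR-552-3p against 34.7 and 30.0 CPM in NC. The groups did not overlap, and si-importin8-NC lay above NC. DDIT3 rose by 0.84 with importin8 siRNA and 2.63 with control siRNA (difference -1.79, SE 0.13, adjusted p = 7.5e-06). SESN2, an antioxidant regulator of mTORC1, rose by 0.66 with importin8 siRNA and 2.42 with control siRNA (difference -1.76, SE 0.11, adjusted p = 3.4e-06). PPP1R15A, which ends the translation block, rose by 0.88 with importin8 siRNA and 3.36 with control siRNA (difference -2.48, SE 0.27, adjusted p = 0.00075). ATF4 itself kept its rise: it was at 475 and 481 CPM in si-importin8-miR-552-3p against 357 and 344 CPM in si-importin8-NC, and 510.1 and 481 CPM in miR-552-3p against 369.8 and 332 CPM in NC, with 0.45 with importin8 siRNA and 0.50 with control siRNA (difference -0.05, 95% interval -0.28 to 0.19). PSAT1, of serine synthesis, was the other kept member (difference -0.18, 95% interval -0.37 to 0.01).

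Cytosolic aminoacyl-tRNA synthetases, many of which ATF4 induces, split into both classes, with 12 of 20 blunted and 5 kept. WARS, for tryptophan, kept its rise at 145 and 139.5 CPM in si-importin8-miR-552-3p against 52.6 and 52.9 CPM in si-importin8-NC, and 198 and 193 CPM in miR-552-3p against 66.7 and 69.6 CPM in NC, with 1.43 with importin8 siRNA and 1.52 with control siRNA (difference -0.09, 95% interval -0.27 to 0.09). AARS, for alanine, kept a rise of 0.81 with importin8 siRNA and 0.84 with control siRNA (difference -0.03, 95% interval -0.23 to 0.16), as did MARS, for methionine, with 0.72 with importin8 siRNA and 0.76 with control siRNA (difference -0.05, 95% interval -0.24 to 0.15). YARS, for tyrosine, was blunted at 194 and 189 CPM in si-importin8-miR-552-3p against 118 and 107 CPM in si-importin8-NC, and 245 and 230.0 CPM in miR-552-3p against 60.3 and 56.6 CPM in NC; it rose by 0.77 with importin8 siRNA and 2.02 with control siRNA (difference -1.25, SE 0.10, adjusted p = 1.4e-05). EPRS and LARS were the other kept members, and all kept members were rises.

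Heat shock genes rose in both arms, 15 of 17 in each, with median effects of 0.49 with importin8 siRNA and 1.33 with control siRNA; 13 were blunted. HSPA1B, an inducible HSP70, was at 1368 and 1315 CPM in si-importin8-miR-552-3p against 717 and 635 CPM in si-importin8-NC, and 2231 and 2020.0 CPM in miR-552-3p against 125 and 108 CPM in NC, with 4 separate groups. It rose by 0.99 with importin8 siRNA and 4.19 with control siRNA (difference -3.21, SE 0.14, adjusted p = 6.8e-07). HSPA1A is a near-identical copy that shares reads with it, so the split between them is uncertain; it rose by 1.07 with importin8 siRNA and 4.09 with control siRNA. DNAJB1, an HSP40 partner, rose by 0.81 with importin8 siRNA and 3.02 with control siRNA (difference -2.22, SE 0.15, adjusted p = 6.7e-06). HSPA6, a strictly inducible HSP70, was at 33.5 and 33.8 CPM in si-importin8-miR-552-3p against 17 and 12.8 CPM in si-importin8-NC, and 100.3 and 78.9 CPM in miR-552-3p against 0.225 and 0.307 CPM in NC, and it rose by 1.17 with importin8 siRNA and 8.36 with control siRNA (difference -7.19, SE 0.34, adjusted p = 2.9e-06). Both NC libraries of HSPA6 lay close to the floor of 3 counts, which is 0.135 and 0.131 CPM there. The size of its control siRNA rise is therefore uncertain. CRYAB, a small heat shock protein, was the strengthened member of the list and DNAJA1 the gained member. Of 19 genes of the NRF2 antioxidant response 14 were blunted (73.7%, beside 28.1% of all genes tested), 12 of them rises and 2 falls. With importin8 siRNA 9 members rose and 3 fell, and with control siRNA 13 rose and 4 fell. TXNRD1, thioredoxin reductase, rose by 1.08 with importin8 siRNA and 2.87 with control siRNA (difference -1.79, SE 0.10, adjusted p = 2.0e-06). SRXN1, sulfiredoxin, rose by 0.83 with importin8 siRNA and 2.11 with control siRNA (difference -1.27, SE 0.11, adjusted p = 1.9e-05). NQO1, a quinone reductase, kept a fall of -0.26 with importin8 siRNA and -0.36 with control siRNA. Of 24 p53 targets 15 were blunted; GADD45A, a growth arrest factor, rose by 0.60 with importin8 siRNA and 2.27 with control siRNA (difference -1.67, SE 0.14, adjusted p = 2.2e-05), TP53INP1 had 0.23 with importin8 siRNA and -2.10 with control siRNA and fell in the second only (difference 2.33, SE 0.14, adjusted p = 2.9e-06), and TNFRSF10B, a death receptor, kept its rise of 0.60 with importin8 siRNA and 0.61 with control siRNA (difference -0.01, 95% interval -0.22 to 0.20).

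**Figure D3:**
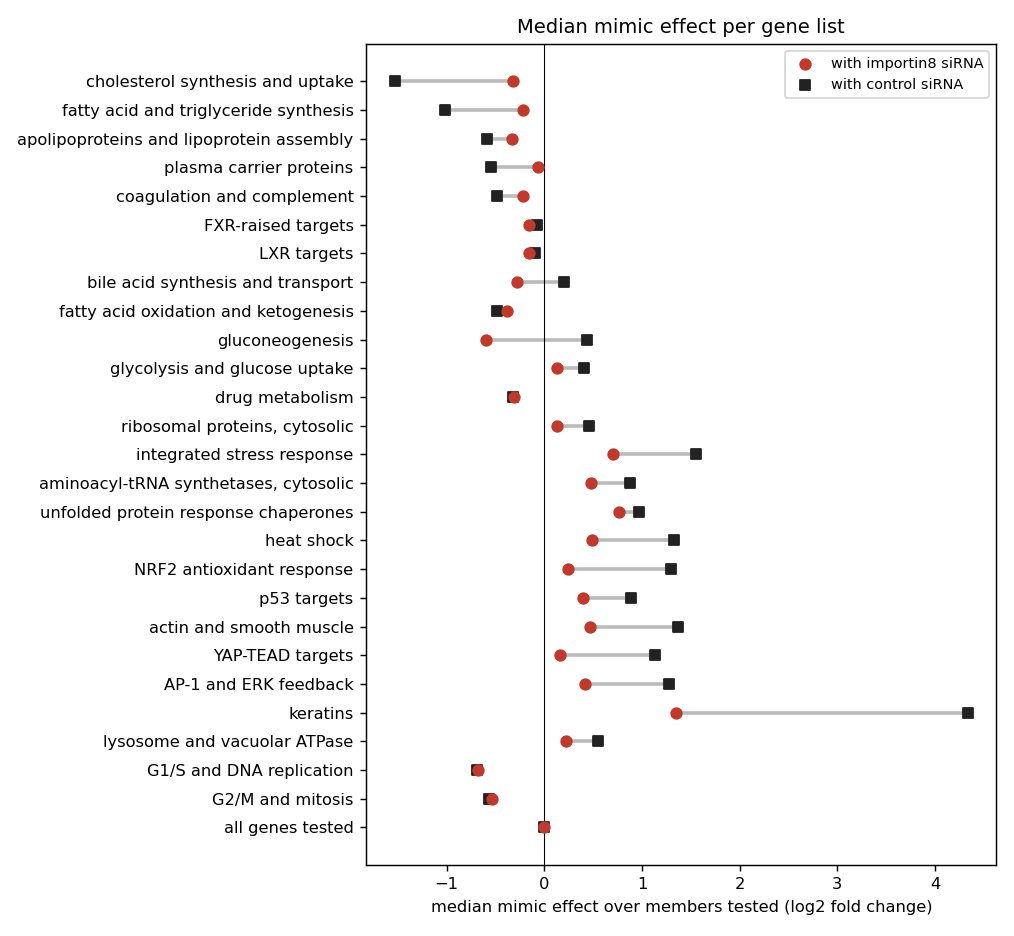
Median mimic effect over the members tested of each gene list, as log2 fold change on the horizontal axis, with importin8 siRNA (red circles) and with control siRNA (black squares). Grey lines join both medians of a list, and the line is longest for keratins, at 1.35 against 4.34, and nearly absent for the G2/M list, at -0.54 against -0.56.

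Most cytoskeletal, YAP-TEAD and AP-1 genes rose with the mimic under control siRNA, and the list medians were much smaller with importin8 siRNA. Among 24 YAP-TEAD targets, the genes induced by the YAP coactivator on stiff or injured tissue, the median was 0.16 with importin8 siRNA and 1.13 with control siRNA. With importin8 siRNA 9 rose and 1 fell, and with control siRNA 17 rose and 2 fell. The 15 blunted members were 14 rises and 1 fall, and 1 member was reversed and 1 gained. ANKRD1 (chr10:90912096-90921276, minus strand, GRCh38) was at 479 and 452 CPM in si-importin8-miR-552-3p against 210.3 and 186 CPM in si-importin8-NC, and 770.0 and 741 CPM in miR-552-3p against 8.19 and 5.91 CPM in NC. NC was near the bottom of the scale, with si-importin8-NC well above it, and no groups overlapped. ANKRD1 rose by 1.23 with importin8 siRNA and 6.74 with control siRNA (difference -5.52, SE 0.17, adjusted p = 8.9e-08). CYR61, a matrix signalling protein, rose by 0.93 with importin8 siRNA and 5.72 with control siRNA (difference -4.80, SE 0.19, adjusted p = 1.0e-06). CTGF, its relative, had -0.27 with importin8 siRNA and 4.78 with control siRNA and passed in the second only (difference -5.05, SE 0.26, adjusted p = 1.4e-05). Of 23 actin and smooth muscle genes 16 were blunted, with medians of 0.47 and 1.36. TAGLN, an actin-binding protein that is also a fibroblast marker, was at 21.5 and 22.8 CPM in si-importin8-miR-552-3p against 4.53 and 2.88 CPM in si-importin8-NC, and 116 and 109 CPM in miR-552-3p against 0.36 and 0.745 CPM in NC, and rose by 2.58 with importin8 siRNA and 7.65 with control siRNA (difference -5.07, SE 0.34, adjusted p = 1.2e-05). PALLD, of stress fibres, rose by 2.79 with importin8 siRNA and 4.40 with control siRNA (difference -1.61, SE 0.13, adjusted p = 1.7e-05).

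AREG, an EGF receptor ligand of the AP-1 and ERK list, was at 26.5 and 24.2 CPM in si-importin8-miR-552-3p against 3.85 and 2.83 CPM in si-importin8-NC, and 152 and 131 CPM in miR-552-3p against 1.39 and 1.4 CPM in NC. Its highest libraries were those of miR-552-3p and its lowest those of NC, without overlap, and it rose by 2.92 with importin8 siRNA and 6.66 with control siRNA (difference -3.74, SE 0.24, adjusted p = 4.3e-06). DUSP5, a phosphatase that feeds back on ERK, rose by 1.76 with importin8 siRNA and 5.75 with control siRNA (difference -3.99, SE 0.25, adjusted p = 2.6e-05). In that list of 27 genes, 22 rose and 3 fell with control siRNA. Its 16 blunted members were 14 rises and 2 falls, beside 5 undecided and 1 kept, PHLDA1. The rise of PHLDA1 was 0.38 with importin8 siRNA and 0.55 with control siRNA (difference -0.17, 95% interval -0.39 to 0.05). All 9 keratins tested rose with control siRNA and 8 with importin8 siRNA, and 7 were blunted. KRT19, a bile duct and progenitor keratin, was at 174 and 170.3 CPM in si-importin8-miR-552-3p against 68.5 and 66.3 CPM in si-importin8-NC, and 676 and 647 CPM in miR-552-3p against 35.3 and 27.3 CPM in NC, and rose by 1.35 with importin8 siRNA and 4.40 with control siRNA (difference -3.05, SE 0.14, adjusted p = 8.4e-07). KRT23 rose by 2.2 with importin8 siRNA and 4.84 with control siRNA (difference -2.64, SE 0.13, adjusted p = 8.7e-07). KRT10 kept its rise of 0.69 with importin8 siRNA and 0.81 with control siRNA. Among 30 lysosomal and vacuolar ATPase genes 16 were blunted, among them CTSB, cathepsin B, with 0.63 with importin8 siRNA and 2.98 with control siRNA (difference -2.35, SE 0.14, adjusted p = 3.4e-06). SQSTM1, an autophagy receptor, was another, with 0.72 with importin8 siRNA and 2.24 with control siRNA (difference -1.51, SE 0.13, adjusted p = 2.0e-05). SOX4, a progenitor factor, rose by 2.08 with importin8 siRNA and 4.40 with control siRNA (difference -2.32, SE 0.12, adjusted p = 1.4e-06). KRT19 and SOX4 belong to the cholangiocyte and progenitor markers summed above, so that sum is not separate from them. Of the 9 such markers tested, 4 rose and 2 fell with control siRNA. Blunted members of that list were 4 rises and 2 falls.

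The largest blunted falls included genes far higher in NC than in any other group. ETNPPL, a phospholyase of phosphoethanolamine, was at 3.8 and 4.31 CPM in si-importin8-miR-552-3p against 3.27 and 3.42 CPM in si-importin8-NC, and 3.48 and 3.2 CPM in miR-552-3p against 202 and 197 CPM in NC, so the 6 other libraries lay together. It had effects of 0.28 with importin8 siRNA and -5.90 with control siRNA, and only the second passed (difference 6.17, SE 0.15, adjusted p = 5.7e-08). RANBP3L, a Ran-binding exporter of SMADs, was at 1.2 and 1.23 CPM in si-importin8-miR-552-3p against 0.672 and 1.62 CPM in si-importin8-NC, and 2.33 and 2.73 CPM in miR-552-3p against 147 and 151 CPM in NC, with 0.09 with importin8 siRNA and -5.88 with control siRNA (difference 5.96, SE 0.43, adjusted p = 1.6e-05), again called in the second only. SLC6A12, a betaine transporter, was at 0.625 and 0.237 CPM in si-importin8-miR-552-3p against 3.09 and 3.19 CPM in si-importin8-NC, and 0.458 and 0.471 CPM in miR-552-3p against 426 and 419 CPM in NC, and fell in both arms (difference 6.96, SE 0.54, adjusted p = 1.2e-05). GLP2R, the glucagon-like peptide 2 receptor, was at 0.144 and 0.0474 CPM in si-importin8-miR-552-3p against 0.0448 and 0.0899 CPM in si-importin8-NC, and 0.0915 and 0.0471 CPM in miR-552-3p against 28.9 and 30.8 CPM in NC. Its 6 libraries outside NC held 3 counts or fewer each, so no fold is given for the importin8 siRNA arm. Over all blunted falls, 21 of 2265 (0.927%) had si-importin8-NC at 3 counts or fewer. Among the largest blunted rises, IGFN1, a muscle protein, was at 3.84 and 2.99 CPM in si-importin8-miR-552-3p against 0.314 and 0.494 CPM in si-importin8-NC. In miR-552-3p it was at 108 and 108 CPM against 0.225 and 0.131 CPM in NC. It rose in both arms (difference -6.14, SE 0.51, adjusted p = 1.7e-05). Its NC libraries lay at or close to the floor of 3 counts, so the size of its control siRNA rise is uncertain. ESAM, an endothelial adhesion molecule, was at 39 and 25.4 CPM in si-importin8-miR-552-3p against 10.5 and 3.68 CPM in si-importin8-NC, and 137 and 139.7 CPM in miR-552-3p against 0.63 and 0.307 CPM in NC, with its si-importin8-miR-552-3p and si-importin8-NC libraries each far apart from their own replicate (difference -6.01, SE 0.97, adjusted p = 0.01). Without NC replicate 1 the adjusted p of ESAM was 0.052, and without NC replicate 2 it was 0.065.

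The cell cycle lists had like median effects in both arms and fewer blunted than kept members. In the G1/S and DNA replication list 25 of 30 genes fell with importin8 siRNA and 25 with control siRNA, and the medians were -0.68 and -0.69. Kept members numbered 10, beside 9 undecided and 3 blunted. The si-importin8-NC libraries had higher levels of most of these genes than NC, by a median of 0.68 for G1/S and 1.09 for G2/M, so the fall began from a higher level. UHRF1, which guides maintenance DNA methylation, was at 18.9 and 19.3 CPM in si-importin8-miR-552-3p against 55.4 and 61.6 CPM in si-importin8-NC, and 13.9 and 13.5 CPM in miR-552-3p against 34.2 and 37.3 CPM in NC. Each mimic group lay below its own control without overlap, and the fall was -1.61 with importin8 siRNA and -1.39 with control siRNA (difference -0.23, 95% interval -0.49 to 0.04). UHRF1 stayed kept in 10 of 18 other settings. It was undecided with DESeq2, with limma-voom and without either si-importin8-miR-552-3p library, si-importin8-NC replicate 1, either miR-552-3p library or NC replicate 2. CDT1, which licenses replication origins, was at 38.8 and 36.5 CPM in si-importin8-miR-552-3p against 76 and 73.9 CPM in si-importin8-NC, and 20.1 and 19.1 CPM in miR-552-3p against 41.1 and 35.6 CPM in NC, and fell, at -0.99 with importin8 siRNA and -0.97 with control siRNA (difference -0.03, 95% interval -0.29 to 0.24). MCM5, a helicase subunit, fell, at -0.83 with importin8 siRNA and -1.08 with control siRNA (difference 0.25, 95% interval 0.01 to 0.49), and RFC3, a clamp loader subunit, at -0.70 with importin8 siRNA and -0.67 with control siRNA (difference -0.03, 95% interval -0.33 to 0.27). The blunted members were MCM3, E2F1 and POLE, the last in 9 of 18 other settings only. E2F1, the factor that drives S phase genes, fell, at -1.23 with importin8 siRNA and -2.38 with control siRNA (difference 1.16, SE 0.12, adjusted p = 8.0e-05), and MCM3 at -0.99 with importin8 siRNA and -1.81 with control siRNA (difference 0.83, SE 0.11, adjusted p = 0.00037). CCND1, cyclin D1, was reversed, with -0.29 with importin8 siRNA and 0.50 with control siRNA (difference -0.79, SE 0.08, adjusted p = 8.2e-05). RRM2, a ribonucleotide reductase subunit, was gained, with -0.48 with importin8 siRNA and 0.09 with control siRNA (difference -0.58, SE 0.11, adjusted p = 0.0028).

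In the G2/M and mitosis list 24 of 28 genes fell with importin8 siRNA and 21 with control siRNA, with medians of -0.54 and -0.56; 10 were kept, 4 undecided and 4 blunted. CENPF, a kinetochore protein, was at 47.3 and 40.7 CPM in si-importin8-miR-552-3p against 76.1 and 85.3 CPM in si-importin8-NC, and 24.1 and 26 CPM in miR-552-3p against 51.2 and 47.5 CPM in NC, and fell, at -0.88 with importin8 siRNA and -0.98 with control siRNA (difference 0.10, 95% interval -0.19 to 0.40). BUB1B, a checkpoint kinase, fell, at -0.75 with importin8 siRNA and -0.70 with control siRNA (difference -0.05, 95% interval -0.32 to 0.21), and KIF20A, a kinesin of cytokinesis, at -0.71 with importin8 siRNA and -0.86 with control siRNA (difference 0.16, 95% interval -0.15 to 0.46). TOP2A, which untangles chromosomes, was blunted, at -0.89 with importin8 siRNA and -1.69 with control siRNA (difference 0.80, SE 0.11, adjusted p = 0.00038), as was MKI67, the proliferation marker Ki-67, at -0.68 with importin8 siRNA and -1.21 with control siRNA (difference 0.53, SE 0.14, adjusted p = 0.021). The MKI67 difference was not called in 5 of 18 other settings (adjusted p up to 0.098), which were a test against a 1.2-fold change and those without replicate 1 of si-importin8-miR-552-3p, si-importin8-NC or miR-552-3p or without NC replicate 2. The median difference of this list, -0.01, changed sign in 8 of 18 other settings.

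Chaperones of the unfolded protein response had 16 of 21 genes up with importin8 siRNA and 18 with control siRNA, with medians of 0.76 and 0.97, and 8 were blunted and 7 kept (38.1 and 33.3%, beside 28.1 and 5.99% of all genes tested). DNAJB11, a co-chaperone of the endoplasmic reticulum, was at 249 and 244 CPM in si-importin8-miR-552-3p against 129 and 127 CPM in si-importin8-NC, and 311 and 291 CPM in miR-552-3p against 146 and 131 CPM in NC. Both mimic groups lay above both of the other groups, and the rise was 0.95 with importin8 siRNA and 1.12 with control siRNA (difference -0.18, 95% interval -0.40 to 0.04). SYVN1, the ligase of ER-associated degradation, was at 272 and 257 CPM in si-importin8-miR-552-3p against 132 and 134 CPM in si-importin8-NC, and 279 and 275 CPM in miR-552-3p against 133 and 135 CPM in NC, and rose by 0.99 with importin8 siRNA and 1.05 with control siRNA (difference -0.06, 95% interval -0.25 to 0.13). MANF, a secreted stress factor, rose by 0.98 with importin8 siRNA and 1.13 with control siRNA (difference -0.15, 95% interval -0.40 to 0.09), and HYOU1, a large ER chaperone, by 0.84 with importin8 siRNA and 0.97 with control siRNA (difference -0.13, 95% interval -0.35 to 0.08). HSPA5, the chaperone BiP, was blunted, at 1.35 with importin8 siRNA and 2.17 with control siRNA (difference -0.82, SE 0.18, adjusted p = 0.0084), as were HERPUD1, at 1.24 with importin8 siRNA and 2.36 with control siRNA (difference -1.12, SE 0.12, adjusted p = 8.4e-05), and ERN1, the sensor IRE1, at 0.76 with importin8 siRNA and 2.26 with control siRNA (difference -1.51, SE 0.12, adjusted p = 1.6e-05).

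Outside these lists the kept genes with the largest effects included EI24, an ER protein of autophagy, at 27.8 and 29.6 CPM in si-importin8-miR-552-3p against 99.5 and 98.3 CPM in si-importin8-NC, and 35.5 and 34.4 CPM in miR-552-3p against 136 and 134 CPM in NC. Its fall was -1.78 with importin8 siRNA and -1.94 with control siRNA (difference 0.16, 95% interval -0.03 to 0.35), and each mimic group lay below its own control. S100A6, a calcium-binding protein, was at 16.5 and 16.8 CPM in si-importin8-miR-552-3p against 5.29 and 4.85 CPM in si-importin8-NC, and 109 and 95.2 CPM in miR-552-3p against 32.3 and 29.4 CPM in NC; its levels were lower throughout with importin8 siRNA, and its rise was 1.71 with importin8 siRNA and 1.73 with control siRNA (difference -0.01, 95% interval -0.33 to 0.30). MAP1B, a microtubule protein, rose by 2.05 with importin8 siRNA and 2.12 with control siRNA (difference -0.08, 95% interval -0.41 to 0.26). RTN4RL2, a Nogo receptor relative, rose by 1.96 with importin8 siRNA and 2.04 with control siRNA (difference -0.08, 95% interval -0.41 to 0.25). Both intervals went beyond the limits of 0.5 in 4 of 18 other settings, all of which left out a library. Among 14 Wnt/beta-catenin targets 8 were blunted (57.1%, beside 28.1% of all genes tested), 2 reversed and 3 kept, the last being AXIN2, TBX3 and SP5. SP5, a direct target of beta-catenin, was at 149.6 and 154 CPM in si-importin8-miR-552-3p against 295 and 284 CPM in si-importin8-NC, and 79.3 and 78.7 CPM in miR-552-3p against 156 and 139.8 CPM in NC, and fell, at -0.93 with importin8 siRNA and -0.90 with control siRNA (difference -0.03, 95% interval -0.24 to 0.19). LGR5, the R-spondin receptor, was blunted, at -1.16 with importin8 siRNA and -1.98 with control siRNA (difference 0.81, SE 0.13, adjusted p = 0.0011). RNF43, which removes Wnt receptors, was reversed, at -0.67 with importin8 siRNA and 0.19 with control siRNA (difference -0.86, SE 0.10, adjusted p = 0.00018).

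**Figure D4:**
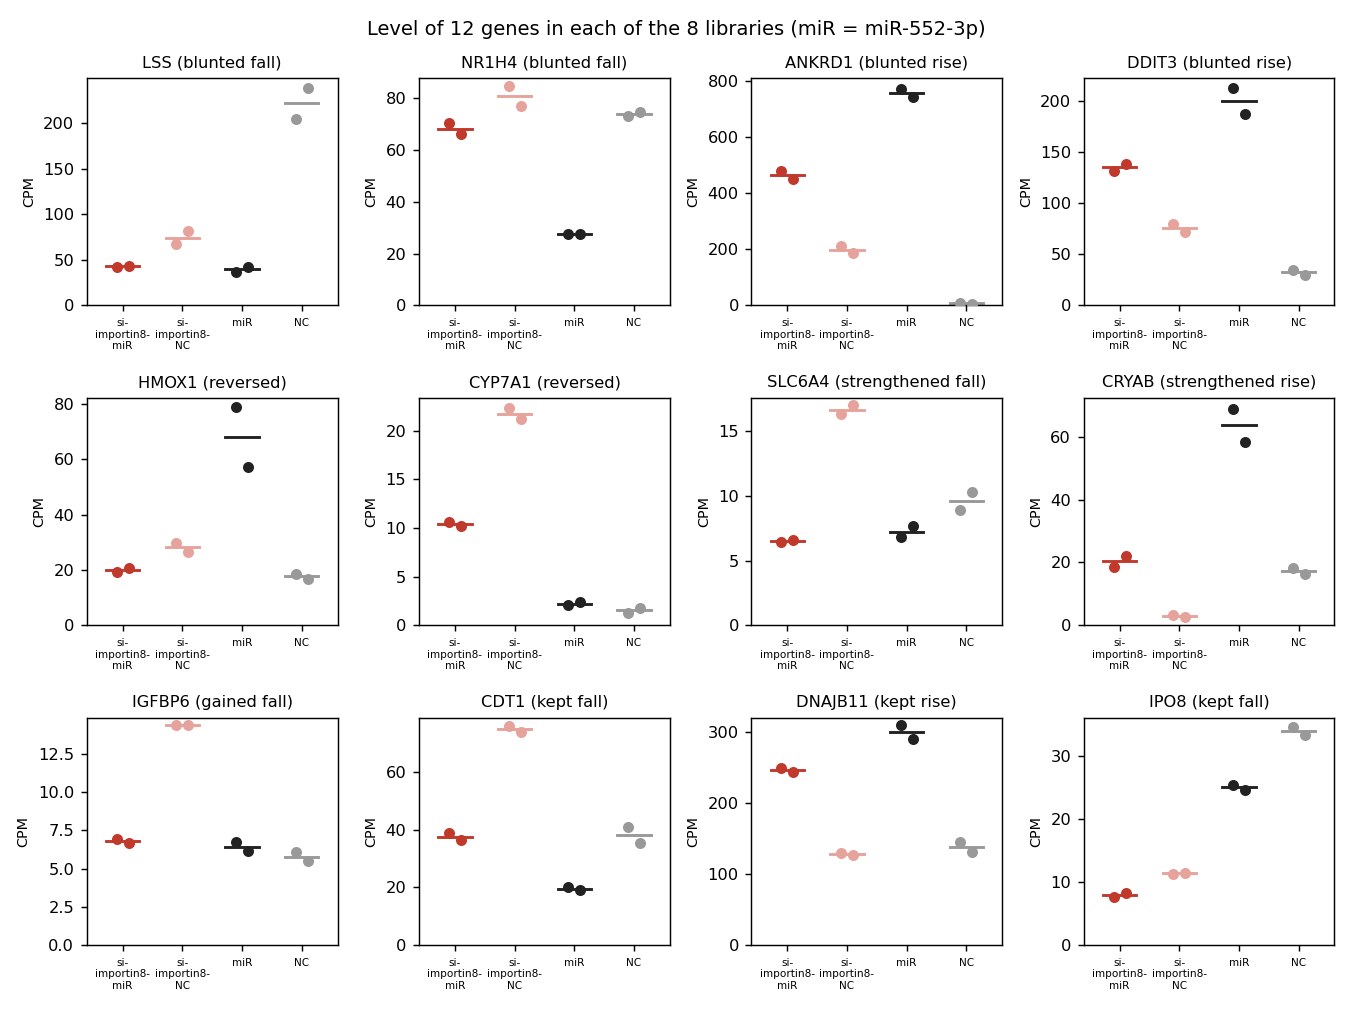
Level of 12 genes in CPM (vertical axis, from 0) in each of the 8 libraries, with 1 point per library and a line at the mean of each group; the class of each gene is given above its panel. In the kept panels (CDT1, DNAJB11) both arms show a like proportional step, while NR1H4 and LSS drop far more between NC and miR-552-3p than between si-importin8-NC and si-importin8-miR-552-3p.

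Reversal was rare, 187 genes with 94 falls and 93 rises by the importin8 siRNA arm. HID1, of dense core vesicle formation, was at 12.1 and 11.5 CPM in si-importin8-miR-552-3p against 6.1 and 4.54 CPM in si-importin8-NC, and 9.79 and 9.7 CPM in miR-552-3p against 222 and 215 CPM in NC, so NC stood far above the other 6 libraries. It rose with importin8 siRNA and fell with control siRNA (1.15 with importin8 siRNA and -4.49 with control siRNA; difference 5.63, SE 0.15, adjusted p = 5.7e-08). SLC4A11, a membrane transporter of the SLC4 family, was at 38 and 37.8 CPM in si-importin8-miR-552-3p against 24.1 and 25.8 CPM in si-importin8-NC, and 42 and 54.1 CPM in miR-552-3p against 418 and 430.2 CPM in NC, with NC again far above, and had 0.60 with importin8 siRNA and -3.14 with control siRNA (difference 3.75, SE 0.15, adjusted p = 6.3e-07). TSC22D3, the glucocorticoid-induced leucine zipper, had 1.89 with importin8 siRNA and -1.81 with control siRNA (difference 3.70, SE 0.31, adjusted p = 1.7e-05). In the other direction, NIN, a centrosome protein, was at 14.6 and 12.5 CPM in si-importin8-miR-552-3p against 22.2 and 20.9 CPM in si-importin8-NC, and 12.6 and 13.6 CPM in miR-552-3p against 2.83 and 2.28 CPM in NC; it fell with importin8 siRNA and rose with control siRNA (-0.67 with importin8 siRNA and 2.36 with control siRNA; difference -3.02, SE 0.19, adjusted p = 3.2e-06). PTGDR2, a prostaglandin D2 receptor, had -1.16 with importin8 siRNA and 1.76 with control siRNA (difference -2.92, SE 0.21, adjusted p = 7.0e-06). SULT1C2, a sulfotransferase, had -0.36 with importin8 siRNA and 2.16 with control siRNA (difference -2.52, SE 0.13, adjusted p = 1.2e-06). HMOX1, haem oxygenase 1, was at 19.4 and 20.8 CPM in si-importin8-miR-552-3p against 29.9 and 26.7 CPM in si-importin8-NC, and 79 and 57.4 CPM in miR-552-3p against 18.7 and 16.8 CPM in NC. Its miR-552-3p libraries lay far above the others and apart from each other, and its effects were -0.49 with importin8 siRNA and 1.94 with control siRNA (difference -2.44, SE 0.22, adjusted p = 7.8e-05). HMOX1 was reversed in 11 of 18 other settings and blunted in the rest, which included those without any 1 library of the importin8 siRNA groups or of NC.

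Among the 45 strengthened genes 28 were falls and 17 rises. MIXL1, a homeobox factor of mesendoderm, was at 133 and 142 CPM in si-importin8-miR-552-3p against 493 and 485 CPM in si-importin8-NC, and 35.3 and 33.4 CPM in miR-552-3p against 69.3 and 58.6 CPM in NC. It was highest in si-importin8-NC, and fell, at -1.83 with importin8 siRNA and -0.90 with control siRNA (difference -0.93, SE 0.12, adjusted p = 0.00029). CYP4F3, a leukotriene hydroxylase, was at 7.06 and 7.49 CPM in si-importin8-miR-552-3p against 23 and 24 CPM in si-importin8-NC, and 3.61 and 3.91 CPM in miR-552-3p against 4.77 and 5.74 CPM in NC, and fell, at -1.69 with importin8 siRNA and -0.48 with control siRNA (difference -1.21, SE 0.19, adjusted p = 0.00085). SLC6A4, the serotonin transporter, was at 6.44 and 6.59 CPM in si-importin8-miR-552-3p against 16.3 and 17 CPM in si-importin8-NC, and 6.82 and 7.67 CPM in miR-552-3p against 8.9 and 10.3 CPM in NC; its si-importin8-NC libraries lay apart on top and it fell, at -1.35 with importin8 siRNA and -0.41 with control siRNA (difference -0.95, SE 0.18, adjusted p = 0.0025). The control siRNA falls of CYP4F3 and SLC6A4 were not called without miR-552-3p replicate 1 or NC replicate 2, which made both gained. Among the strengthened rises, LYVE1, a hyaluronan receptor, was at 7.93 and 8.15 CPM in si-importin8-miR-552-3p against 1.88 and 1.57 CPM in si-importin8-NC, and 10.2 and 11.6 CPM in miR-552-3p against 7.29 and 7.58 CPM in NC, with si-importin8-NC alone at the bottom, and it rose by 2.21 with importin8 siRNA and 0.55 with control siRNA (difference 1.66, SE 0.21, adjusted p = 0.00028); its control siRNA rise was not called without miR-552-3p replicate 2. CRYAB was at 18.6 and 22.2 CPM in si-importin8-miR-552-3p against 3.32 and 2.79 CPM in si-importin8-NC, and 69 and 58.4 CPM in miR-552-3p against 18.4 and 16.2 CPM in NC and rose by 2.74 with importin8 siRNA and 1.88 with control siRNA (difference 0.86, SE 0.20, adjusted p = 0.0092), which was not called without si-importin8-NC replicate 2 (adjusted p = 0.056). PHLDA2, an imprinted growth regulator, rose by 1.80 with importin8 siRNA and 1.13 with control siRNA (difference 0.67, SE 0.11, adjusted p = 0.0015). Among the gained falls, IGFBP6, an IGF-binding protein, was at 6.92 and 6.64 CPM in si-importin8-miR-552-3p against 14.3 and 14.4 CPM in si-importin8-NC, and 6.72 and 6.12 CPM in miR-552-3p against 6.07 and 5.47 CPM in NC, and fell with importin8 siRNA, at -1.08, while its control siRNA effect of 0.15 did not pass (difference -1.24, SE 0.18, adjusted p = 0.00057). DKK4, a Wnt antagonist, fell, at -1.68, with importin8 siRNA, against -0.20 with control siRNA, which did not pass (difference -1.47, SE 0.28, adjusted p = 0.0032). TUBB1, a platelet tubulin, had -0.81 with importin8 siRNA and 0.43 with control siRNA, of which only the first passed (difference -1.24, SE 0.24, adjusted p = 0.0054; TUBB1 was reversed with DESeq2, with limma-voom and without NC replicate 1). Among gained rises, PLPPR2, a phospholipid phosphatase relative, had 0.67 with importin8 siRNA and -0.19 with control siRNA (difference 0.86, SE 0.17, adjusted p = 0.0042), called in the first only.

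Of 29 importins, exportins and Ran genes 11 were blunted (37.9%, beside 28.1% of all genes tested), all of them rises. A further 16 had no called difference, and 4 of these were kept, IPO8, IPO9, XPO7 and KPNB1. Without si-importin8-NC replicate 1 the blunted members numbered 7. IPO8 fell with the mimic, at -0.52 with importin8 siRNA and -0.44 with control siRNA, with a difference of -0.07, 95% interval -0.35 to 0.20, so its fall was kept in both arms. KPNA4, an importin alpha, was at 104 and 98.2 CPM in si-importin8-miR-552-3p against 73.3 and 74.2 CPM in si-importin8-NC, and 101 and 107 CPM in miR-552-3p against 51.9 and 49.6 CPM in NC, and rose by 0.45 with importin8 siRNA and 1.04 with control siRNA (difference -0.58, SE 0.09, adjusted p = 0.00077). Of 19 genes of the microRNA machinery 7 were blunted (36.8%, beside 28.1% of all genes tested). Fewer were blunted without si-importin8-NC replicate 1 or without miR-552-3p replicate 1. AGO2, the Argonaute that cleaves targets, was at 78 and 73.9 CPM in si-importin8-miR-552-3p against 46.8 and 42.8 CPM in si-importin8-NC, and 86.7 and 98.8 CPM in miR-552-3p against 41.7 and 39.5 CPM in NC; it rose by 0.76 with importin8 siRNA and 1.19 with control siRNA (difference -0.43, SE 0.11, adjusted p = 0.017), and the difference lost its call in 4 of 18 other settings. These were a test against a 1.2-fold change (adjusted p = 0.11) and those without si-importin8-miR-552-3p replicate 2, si-importin8-NC replicate 1 or miR-552-3p replicate 2. DICER1, which cuts the precursor, was at 82.6 and 77.4 CPM in si-importin8-miR-552-3p against 79.9 and 76.7 CPM in si-importin8-NC, and 63.4 and 68.5 CPM in miR-552-3p against 99.9 and 116 CPM in NC, and had 0.03 with importin8 siRNA and -0.71 with control siRNA, of which only the second passed (difference 0.74, SE 0.12, adjusted p = 0.00092). Of 31 cytosolic ribosomal proteins 2 rose with importin8 siRNA and 24 with control siRNA and none fell in either, with medians of 0.13 and 0.46. Blunted members numbered 8 (25.8%, beside 28.1% of all genes tested). RPS18 had 0.16 with importin8 siRNA and 0.96 with control siRNA (difference -0.80, SE 0.20, adjusted p = 0.019), called in the second only. Its difference was not called (adjusted p up to 0.067) without either si-importin8-miR-552-3p library or replicate 1 of si-importin8-NC or miR-552-3p. Without NC replicate 1 the blunted ribosomal genes numbered 26, and without any other library 3 to 9. In oxidative phosphorylation 4 of 28 genes were blunted (14.3%, beside 28.1% of all genes tested). That count was 0 without replicate 2 of either importin8 siRNA group and 8 without NC replicate 1, so no direction is read from it.

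The remaining lists were mixed. Among 19 interferon response genes 6 were blunted (31.6%, beside 28.1% of all genes tested), and 3 without miR-552-3p replicate 1. IFI6, an interferon-induced mitochondrial protein, was at 3.12 and 3.65 CPM in si-importin8-miR-552-3p against 5.51 and 4.63 CPM in si-importin8-NC, and 3.93 and 4.05 CPM in miR-552-3p against 40.0 and 34.6 CPM in NC, and fell, at -0.58 with importin8 siRNA and -3.22 with control siRNA (difference 2.64, SE 0.21, adjusted p = 1.2e-05). Of 21 genes of integrins and matrix 9 were blunted (42.9%, beside 28.1% of all genes tested). FN1, fibronectin, kept its rise, with 0.64 with importin8 siRNA and 0.57 with control siRNA (difference 0.07, 95% interval -0.24 to 0.37). It was at 14200.0 and 13130.0 CPM in si-importin8-miR-552-3p against 8881 and 8655 CPM in si-importin8-NC. In miR-552-3p it was at 14440.0 and 15690.0 CPM against 10150.0 and 10090.0 CPM in NC. LAMA3, a laminin chain, was reversed, at 0.75 with importin8 siRNA and -1.12 with control siRNA (difference 1.87, SE 0.19, adjusted p = 6.1e-05). Of 19 matrix protease and plasminogen activation genes 10 were blunted (52.6%, beside 28.1% of all genes tested). SERPINE2, a protease inhibitor, was at 66.1 and 67.3 CPM in si-importin8-miR-552-3p against 22.4 and 20.4 CPM in si-importin8-NC. In miR-552-3p it was at 175 and 166 CPM against 13.5 and 13.1 CPM in NC. It rose by 1.64 with importin8 siRNA and 3.68 with control siRNA (difference -2.04, SE 0.10, adjusted p = 8.7e-07). PLAU, urokinase, was reversed, at 1.21 with importin8 siRNA and -1.47 with control siRNA (difference 2.68, SE 0.36, adjusted p = 0.00038). Of 20 cadherins and tight junction genes 8 were blunted and 4 kept. CDH16, a kidney cadherin, was at 1.97 and 1.66 CPM in si-importin8-miR-552-3p against 6.99 and 8.81 CPM in si-importin8-NC, and 1.51 and 1.84 CPM in miR-552-3p against 274 and 302 CPM in NC, so NC stood alone, and it fell, at -2.12 with importin8 siRNA and -7.42 with control siRNA (difference 5.30, SE 0.28, adjusted p = 1.4e-06). CDH1, E-cadherin, was at 26.1 and 26.9 CPM in si-importin8-miR-552-3p against 30.8 and 27.3 CPM in si-importin8-NC, and 12.5 and 13 CPM in miR-552-3p against 3.73 and 3.07 CPM in NC, with no overlap between groups and both importin8 siRNA groups highest. Its effects were -0.13 with importin8 siRNA and 1.91 with control siRNA, and only the second passed (difference -2.04, SE 0.16, adjusted p = 1.2e-05). CLDN12, a claudin, kept its rise of 0.67 with importin8 siRNA and 0.85 with control siRNA (difference -0.17, 95% interval -0.37 to 0.03). Of 21 hypoxia-inducible genes 6 were blunted, which at 28.6% is close to the 28.1% of all genes tested, and 11 were blunted without NC replicate 1. Of 13 glycogen genes 6 were blunted (46.2%, beside 28.1% of all genes tested) and 2 kept, PYGL and GYG2. Blunted glycogen genes numbered 3 against a 1.2-fold change, and were fewer without any 1 library outside NC. PYGL, liver glycogen phosphorylase, fell, at -0.32 with importin8 siRNA and -0.36 with control siRNA (difference 0.04, 95% interval -0.17 to 0.25).

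Seed matches were counted in the 3′ UTR of 13787 genes tested (GENCODE 29, GRCh38), of which 2656 (19.3%) held CACCTGT on the transcript strand. The site of MIXL1, a strengthened fall, is shown, since that class had the highest share of genes with a match; capitals mark the match.
MIXL1, plus strand, chr1:226226952-226226981: tcctgattttgCACCTGTtacttcgatcac
A match is a description, not evidence that the microRNA binds there.

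With importin8 siRNA 25.4% of genes with a match fell, beside 18.4% of those without; with control siRNA the shares were 35.4% and 31.1%. Genes with a match have longer 3′ UTRs, a median of 3038.5 bases against 1044 bases, so the shares were taken within terciles of UTR length. With importin8 siRNA they were 23.4% with and 17.6% without a match in the shortest tercile, 27.1% and 20.6% in the middle tercile and 25% and 16.7% in the longest. With control siRNA they were 38.7% and 30.9%, 37.0% and 32.4%, and 34.4% and 29.7% in the same terciles. Among genes that fell with control siRNA, the 941 with a match retained a median of 47.7% of their fall and the 3464 without one 39.5%. Kept falls made up 16.2% of those with and 11.8% of those without a match, while blunted falls made up 44.4% and 44.7%. By class, 12 of 27 strengthened falls (44.4%), 152 of 561 kept falls (27.1%), 418 of 1967 blunted falls (21.3%) and 418 of 2524 blunted rises (16.6%) held a match. The retained shares and the shares by class were not split by UTR length. Over all genes with a 3′ UTR, those without a match were kept in 5.39%, 8.19% and 8.15%, from the shortest to the longest tercile. Genes with a match were kept in 6.31%, 9.32% and 9.56% in the same terciles. No test was made of these shares, and genes are not replicates.

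**Figure D5:**
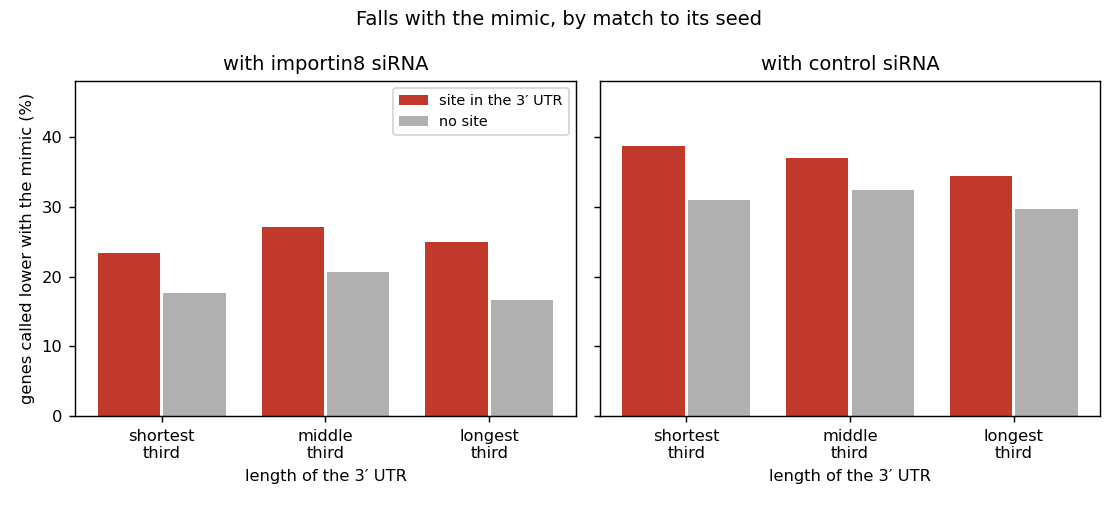
Share of genes called lower with the mimic (vertical axis, percent, from 0) for genes with (red) and without (grey) a match to the seed in the 3′ UTR, in terciles of 3′ UTR length, with importin8 siRNA on the left and control siRNA on the right. The red bar is the higher of each pair, at 23.4 to 27.1% with importin8 siRNA and 34.4 to 38.7% with control siRNA.

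The same 7 letters were sought on both strands of the 300 bases around gene starts (250 before and 50 after, RefSeq, GRCh38.p14), since microRNAs in the nucleus have been described to act at promoters. CACCTG is also an E-box, so the match overlaps the sites of many transcription factors. It was present in 3.09% of the 12682 promoters of genes tested and in 1122 of all 27305 promoters (4.11%). Blunted genes had it in 2.93% and kept genes in 2.68%.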

How the data were processed

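RNA sequencing of HepG2 cells gave an expected count and an FPKM per gene and library, as deposited by the authors per the file headers. The submitters' processing notes name HISAT2 2.0.4, Bowtie2 2.2.5, RSEM 1.2.8 and GRCh38.p12. FPKM values, as deposited by the authors, served only to check the unit. The table's abbreviated columns were read as the 4 groups of the labels, and 0 columns of values were left unread.

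Expected counts were rounded, and 17715 of 26716 genes passed edgeR's filterByExpr. R 4.3.3, edgeR 4.0.16, limma 3.58.1 and DESeq2 1.42.0 were used. One robust quasi-likelihood model with 4 group means and TMM scaling (factors 0.961 to 1.06) gave each contrast, adjusted by Benjamini-Hochberg over all genes tested. The standard error is the log2 fold change divided by the square root of its F, and is approximate. CPM values use the scaled library size. Steps were tested on simulated data with known changes. Replicates differed beyond counting noise, with a chi-square per degree of freedom of 4.3 in si-importin8-miR-552-3p, 5.01 in si-importin8-NC, 7.21 in miR-552-3p and 9.8 in NC. The labels do not call them separate cultures: the p-values reflect the spread between these samples only, and that spread may be technical. The sources used here do not say whether counting used strand, so antisense partners, like near-identical copies, are uncertain.

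Members and lists were chosen with earlier results of these data known. The 44 lists hold 865 genes, 856 of them in the table and 805 tested. Genes were named by rule: IPO8, the nuclear receptor theme genes, and, among genes with a mean of at least 100 counts and 1 sign in all 16 combinations of 1 library per group, the largest differences (8 blunted falls and 8 rises, 4 in each direction of the other classes) and the largest kept effects. Up to 4 members per list that were called in the difference or kept were also named. Other members in counts of 5 or fewer were named after their values were seen. RefSeq's table held 22421 of the 26716 gene IDs. Alternatives were DESeq2, limma-voom, RLE and upper-quartile scaling, no filter, a mean of at least 100 counts, no robust fit, the top gene removed, a test against a 1.2-fold change, a replicate block and each library left out. A few items of the lists and sites are not reported here.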

Additional observations from a re-analysis of the deposited data

Results flagged for a closer look

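The mimic effect differed between the importin8 siRNA arm and the control siRNA arm, by the test of the difference itself, for 5551 genes, and 187 of these were called in opposite directions in the arms. Among the reversed genes named, the difference was -3.02 for NIN, -2.92 for PTGDR2, -2.52 for SULT1C2, -2.44 for HMOX1, -1.58 for CYP7A1 and -0.96 for ABCA1. It was 5.63 for HID1, 3.75 for SLC4A11, 3.70 for TSC22D3 and 3.12 for TMEM140. The difference was called in every one of the 18 other settings for these genes. The opposite directions were less stable: NIN, PTGDR2, HID1, SLC4A11 and TSC22D3 stayed reversed in all 18, ABCA1 in 16, SULT1C2 in 15, TMEM140 in 12, HMOX1 in 11 and CYP7A1 in 7.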

How the results depend on the processing

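The number of genes called in the difference ranged over the 8 fits that left out a library between 4186 and 5707, and was 4041 with DESeq2 and 3799 against a 1.2-fold change. Blunted genes ranged between 3849 and 5082, and made up 88.5 to 92.6% of the called genes in all settings. The smaller classes depended more on the setting. DESeq2 gave 98 reversed, 15 strengthened, 134 gained and 567 kept genes, and the test against a 1.2-fold change 16 strengthened and 109 gained genes. With a library left out, the mimic effect with importin8 siRNA was called for 3545 to 6087 genes and that with control siRNA for 8887 to 10180, while reversed genes numbered 85 to 226, strengthened 19 to 41, gained 141 to 283 and kept 575 to 1147. The libraries that moved a count by over 1.5 times included all 4 of the importin8 siRNA groups. Reversed genes numbered 102 without si-importin8-miR-552-3p replicate 2 and 101 without si-importin8-NC replicate 1, gained genes 175 and 150, and kept genes 669 and 676. Strengthened genes numbered 26 without si-importin8-NC replicate 1, 19 without miR-552-3p replicate 1 and 20 without miR-552-3p replicate 2. The cause was not tested. Same-numbered libraries did not deviate together (r of -0.064 to 0.126 over 11484 genes), so the numbers pair no samples. The replicate block gave 5786 called differences and 5157 blunted, 209 reversed, 56 strengthened, 296 gained and 1171 kept genes. Upper-quartile scaling moved the positive share of the called differences to 51.7%, against 45.3%. Among the genes named by rule, those named only as list members aside, no called difference changed sign. The median difference changed sign in 4 settings for drug metabolism, in 3 for integrins and matrix, in 8 for the fibroblast markers and in 1 each for amino acid catabolism and the endothelial markers. CYP8B1 was called with upper-quartile scaling only (1.27, adjusted p = 0.0498). Depth sets a floor of 3 counts per library, 0.131 to 0.144 CPM, below which no level is read.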
